A study of Homo sapiens with 12 samples.

Results

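Mitochondrial ribosomal protein genes were taken as the protein-coding genes whose symbol begins with MRPL or MRPS and a digit, with pseudogenes left out. This rule found 76 of the 57820 genes listed in the count tables. By the place of the protein in the ribosome, 50 of the 76 encode large-subunit proteins and 25 encode small-subunit proteins. MRPS30 and MRPS18A are counted with the large subunit, where their proteins sit in spite of the S in the name. MRPS36 was assigned to neither, because its product is now placed in the 2-oxoglutarate dehydrogenase complex. Of the 75 assigned members, 45 are counted as homologues of bacterial ribosomal proteins and 30 as specific to mitochondrial ribosomes.

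The mitochondrial ribosome works in the matrix, where it translates the few mRNAs of the mitochondrial genome, all of which encode subunits of the respiratory chain and ATP synthase. Its ribosomal RNAs are transcribed inside the organelle, whereas every one of its proteins is encoded in the nucleus, transcribed by RNA polymerase II (RNAP2), translated in the cytosol and imported. Mutations in single members, among them MRPL3, MRPL12, MRPL44, MRPS16, MRPS22 and MRPS34, cause inherited disorders of mitochondrial translation in humans.

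The cells were T47D-MTVL, a line made from hormone-responsive T47D breast cancer cells by integrating a luciferase gene under the MMTV promoter, and they were kept in charcoal-treated serum without the progestin R5020. One tested group received an siRNA against PADI2 (siPADI2) and was measured as poly(A) RNA and as chromatin-associated RNA, with cells given a control siRNA (siCtrl) as the control in both RNA types. The other tested group is labelled as expressing the R1810A form of an HA-tagged RNAP2 and was measured as poly(A) RNA, with cells expressing the wild-type tagged RNAP2 (WT) as the control. Both tagged forms resist alpha-amanitin, which shuts off RNAP2 made from the native gene, and both groups had 24 h of expression and then 12 h in 6 µg/ml of the toxin. PADI2 encodes an enzyme that converts protein arginine to citrulline, and R1810A puts alanine in place of an arginine in the tail (C-terminal domain) of RNAP2's largest subunit. Each of the 6 groups held 2 libraries. The labels do not say whether these came from separate cultures, so the spread behind each p-value is that between 2 libraries and may be technical.

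The poly(A) libraries held between 44.32 and 132.76 counts in units of 1e6, and the chromatin libraries between 2.72 and 7.04. In poly(A) RNA, PADI2 itself stood at 1.83 and 1.88 counts per 1e6 of the scaled library size (CPM) after siPADI2, against 24.0 and 22.6 CPM after siCtrl. In chromatin RNA it stood at 8.52 and 14.2 CPM after siPADI2, against 34.9 and 32.5 CPM after siCtrl. PADI2 was also low, at 3.13 and 2.35 CPM, in the libraries labelled R1810A, against 48.9 and 50.7 CPM in the WT libraries, although that label names no PADI2 siRNA, and directions drawn from the libraries labelled R1810A carry this doubt. POLR2A, the gene of RNAP2's largest subunit, had 361 and 363 CPM in the libraries labelled R1810A, against 514 and 528 CPM in the WT libraries. In poly(A) RNA it had 311 and 306 CPM after siPADI2, against 489 and 401 CPM after siCtrl. Its log2 fold change was −0.53 in both comparisons, and its part in the results was not tested. Among the cell type markers, the 9 luminal genes stood for the labelled breast cancer cells, and the 4 basal genes summed to 0.65 to 1.71 CPM, the 4 mesenchymal genes to 51.8 to 78.6 CPM, the 3 immune genes to 0.024 to 0.104 CPM and the endothelial genes to 0.048 to 0.143 CPM over the poly(A) libraries. The luminal genes summed to 6080 to 6560 CPM after siPADI2 and 10100 to 11300 CPM after siCtrl, and to 6710 to 7540 CPM in the libraries labelled R1810A and 10000 to 10600 CPM in the WT libraries. Of these 9 genes, 6 were lower and 1 higher after siPADI2, the higher one being the adhesion gene EPCAM at a log2 fold change of 0.62. In the libraries labelled R1810A 6 were lower and 2 higher, namely EPCAM and the cadherin gene CDH1 at 0.36 each. The part of this difference in the results was not tested. In bulk RNA, fewer cells of a type and less RNA per cell cannot be told apart.

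Nearly the whole family was expressed in these cells. In siCtrl poly(A) RNA, 69 of the 76 members reached at least 5 CPM per kilobase of exons, with a median level of 19.1 and quartiles of 10.6 and 33.4 CPM per kilobase. After siPADI2 the median level was 15.6 and the quartiles were 11.0 and 29.9 CPM per kilobase. Over the quartiles the levels thus spanned 2.72-fold after siPADI2 and 3.14-fold after siCtrl, a narrow range next to the full spread, which is set by a few very low members.

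The highest level in siCtrl belonged to MRPS35, a mitochondria-specific protein of the small subunit, with 72.0 and 67.6 CPM per kilobase after siPADI2 and 103 and 113 CPM per kilobase after siCtrl. MRPS18B, 1 of 3 relatives of bacterial S18, followed with 95.6 and 85.7 CPM per kilobase after siPADI2 and 110 and 101 CPM per kilobase after siCtrl. MRPL47, a homologue of bacterial L29, came next with 75.9 and 80.7 CPM per kilobase after siPADI2 and 87.7 and 102 CPM per kilobase after siCtrl. Within siCtrl, neighbours in this order overlapped between their 2 libraries, so the order of the top 3 is not resolved beyond the spread. MRPS35 was the only one of the 3 whose siPADI2 libraries lay below those of both others.

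At the bottom stood MRPL53, MRPS24 and MRPL30. MRPL53 had 2.28 and 2.37 CPM per kilobase after siPADI2, against 1.61 and 1.80 CPM per kilobase after siCtrl. MRPS24 had 1.02 and 0.738 CPM per kilobase after siPADI2, against 1.07 and 0.628 CPM per kilobase after siCtrl. MRPL30 rested on 4 and 5 counts after siPADI2, against 1 and 5 counts after siCtrl, and did not pass the filter on low counts in that comparison. All 3 share exons with another gene on the same strand, which covers 45.2% of the exonic bases of MRPL53 (CCDC142), 23.2% of MRPS24 (URGCP-MRPS24) and 88.6% of MRPL30, and the counting dropped reads that overlap more than 1 gene. Such overlaps touch 14 of the 76 members, among them MRPL12 with 68.2% and MRPL38 with 45.2% of their exonic bases, and the values of these 14 are less certain than the rest.

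**Figure D1:**
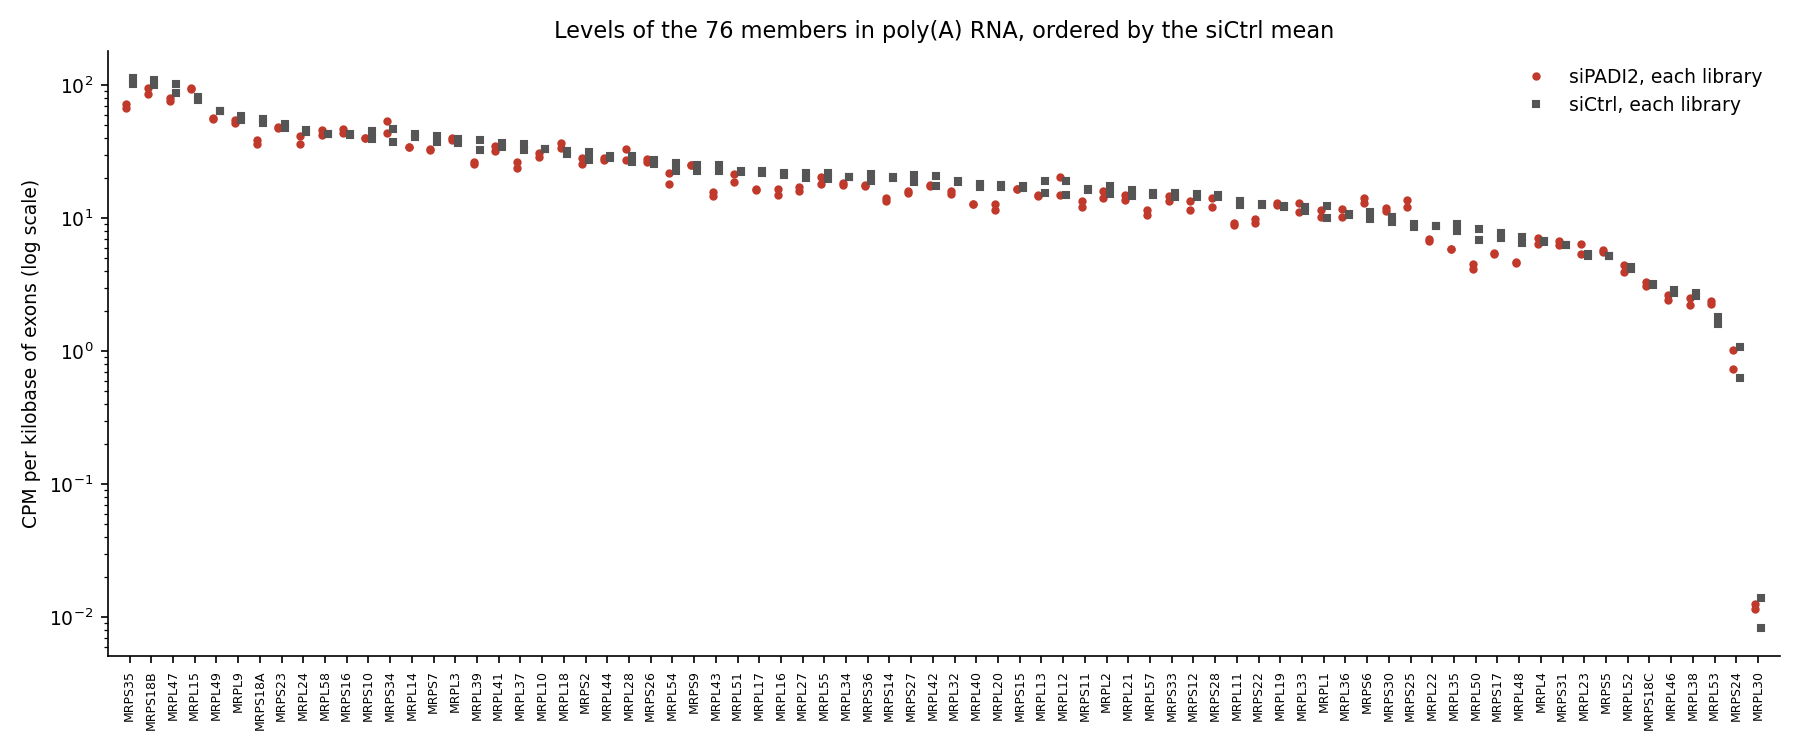
Level of each of the 76 members in poly(A) RNA, as CPM per kilobase of exons on a log axis, in each siPADI2 library (circles) and each siCtrl library (squares), ordered by the siCtrl mean. Most members lie between the siCtrl quartiles of 10.6 and 33.4 CPM per kilobase or near them, and MRPL30 stands apart at the bottom.

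The members are scattered over the genome, and their start sites were set against those of other genes. No chromosome holds more than 8 of the 76, the number on chromosome 2. A protein-coding neighbour on the opposite strand starts within 1000 bases upstream of 17 of the 75 members tested in siPADI2 poly(A) RNA (22.7%), against 9.18% of the 13856 protein-coding genes tested. Pairs within the family or its pathway are among them, such as MRPL46 with MRPS11 at 34 bases and MRPL47 with the complex I gene NDUFB5 at 36 bases. Both distances are between annotated starts on hg19.

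Promoter sequences (250 bases before to 50 bases after the start, from RefSeq on GRCh38.p14) were matched for 67 of the 76 members and set against 27305 genes in all. These are not limited to the protein-coding genes tested, so the shares below do not set the family apart from other expressed genes. The core of ETS-family sites, CCGGAAG, was found on either strand in 28 of the 67 member promoters (41.8%) and in 10.7% of all promoters. The letters AAGATGG, a core of YY1 sites, were found in 22 of the 67 (32.8%) and in 6.06% of all promoters. The letters GCATGCG, part of the core of NRF1 sites, were found in 7 of the 67 (10.4%) and in 4.13% of all promoters. CCGGAAG and AAGATGG can share letters, since AAG ends the first and begins the second, so their counts are not exclusive. A match is a description and not a site, and no match says only that these letters are not in the window. At least 1 of the 3 motifs was present in 19 of the 28 matched promoters of members lower after siPADI2 in poly(A) RNA and in 21 of the 34 of members not called there.

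The promoters of 6 members are given because their siPADI2 calls can be compared between poly(A) and chromatin RNA. MRPS35 (chr12:27710582-27710881, plus strand), MRPS18A (chr6:43687742-43688041, minus strand), MRPS12 (chr19:38930694-38930993, plus strand) and MRPL54 (chr19:3762432-3762731, plus strand) were lower after siPADI2 in both RNA types, MRPS25 (chr3:15065266-15065565, minus strand) was higher in both, and MRPL48 (chr11:73787624-73787923, plus strand) was lower in poly(A) RNA and higher in chromatin RNA. No member was called in the same direction in all 3 comparisons, so these 6 were chosen after their values were seen. Each sequence is written 5′ to 3′ along the gene, and capitals mark a match to CCGGAAG or AAGATGG on either strand.
MRPS35: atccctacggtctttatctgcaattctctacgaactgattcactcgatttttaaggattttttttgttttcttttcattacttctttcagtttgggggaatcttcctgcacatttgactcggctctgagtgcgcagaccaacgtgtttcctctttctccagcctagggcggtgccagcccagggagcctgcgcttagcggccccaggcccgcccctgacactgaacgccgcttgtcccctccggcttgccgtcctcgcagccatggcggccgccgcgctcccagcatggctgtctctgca
MRPS18A: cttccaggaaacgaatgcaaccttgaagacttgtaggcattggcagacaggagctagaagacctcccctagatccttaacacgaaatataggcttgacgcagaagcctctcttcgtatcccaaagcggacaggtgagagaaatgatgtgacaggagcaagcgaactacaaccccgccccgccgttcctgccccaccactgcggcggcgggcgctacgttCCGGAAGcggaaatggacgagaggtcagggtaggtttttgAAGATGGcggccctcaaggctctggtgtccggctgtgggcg
MRPS12: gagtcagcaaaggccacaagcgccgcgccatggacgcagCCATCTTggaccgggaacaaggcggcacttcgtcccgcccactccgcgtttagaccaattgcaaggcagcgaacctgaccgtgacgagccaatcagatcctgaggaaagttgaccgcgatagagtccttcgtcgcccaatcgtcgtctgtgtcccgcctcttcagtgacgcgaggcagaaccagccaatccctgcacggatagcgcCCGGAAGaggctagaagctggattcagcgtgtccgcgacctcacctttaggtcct
MRPL54: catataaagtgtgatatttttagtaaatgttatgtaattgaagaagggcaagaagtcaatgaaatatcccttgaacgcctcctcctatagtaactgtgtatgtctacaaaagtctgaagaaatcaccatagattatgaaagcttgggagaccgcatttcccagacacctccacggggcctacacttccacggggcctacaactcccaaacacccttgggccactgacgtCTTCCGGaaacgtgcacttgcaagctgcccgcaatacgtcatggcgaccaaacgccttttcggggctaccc
MRPS25: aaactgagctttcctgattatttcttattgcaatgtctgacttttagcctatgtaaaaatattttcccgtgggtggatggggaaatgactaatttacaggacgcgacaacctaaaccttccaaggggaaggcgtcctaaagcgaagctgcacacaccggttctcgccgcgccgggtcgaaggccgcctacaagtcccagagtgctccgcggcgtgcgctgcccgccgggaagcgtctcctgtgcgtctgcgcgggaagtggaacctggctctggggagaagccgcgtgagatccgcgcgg
MRPL48: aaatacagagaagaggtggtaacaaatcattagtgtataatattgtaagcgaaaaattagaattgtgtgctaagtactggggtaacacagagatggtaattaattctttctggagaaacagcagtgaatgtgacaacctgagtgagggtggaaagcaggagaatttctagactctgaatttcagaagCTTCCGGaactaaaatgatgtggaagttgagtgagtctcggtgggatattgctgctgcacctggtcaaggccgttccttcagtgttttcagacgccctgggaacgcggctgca
The MRPS18A and MRPS12 promoters each hold 1 match to CCGGAAG and 1 to AAGATGG, the second of these on the opposite strand in MRPS12. Those of MRPL54 and MRPL48 hold 1 match to CCGGAAG, on the opposite strand, and those of MRPS35 and MRPS25 hold none of the 3 motifs.

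After siPADI2, poly(A) RNA of the mitochondrial ribosomal protein genes was more often lower than higher, by small amounts, a lean that depends on the scaling of the libraries given below. MRPL50, a mitochondria-specific protein of the large subunit, fell most, to 0.576 of its siCtrl level. MRPL43, MRPS35, MRPS14 and MRPL48 fell by 0.55 to 0.65 on the log2 scale. In the other direction, MRPS25, a mitochondria-specific protein of the small subunit, reached 1.48 times its siCtrl level, and MRPS6, MRPL53, MRPS30 and MRPL15 also rose.

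Of the 75 members that passed the filter on low counts, 30 were lower after siPADI2 than after siCtrl (40.0%) and 5 were higher (6.67%) by edgeR's quasi-likelihood test at a Benjamini-Hochberg adjusted p of 0.05 over all genes tested. Among all 18720 genes tested, 27.9% were lower and 28.8% higher. The median log2 fold change was −0.14 over the members and 0.01 over all genes tested. Without siPADI2 replicate 2 the 2 medians differed by −0.07. The members lay between −0.80 and 0.56, and 65 of the 75 changed by less than 0.5 on the log2 scale in either direction. When the total counts were used as library sizes, the median of all genes moved to 0.19 and that of the members to 0.04, and 17 members were lower and 16 higher. Against a fold of 1.2, edgeR's glmTreat called 17 members lower and 1 higher, against 19.6% and 19.3% of all genes.

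Summed over the family, the members held 3870 and 3680 CPM after siPADI2, against 4210 and 4280 CPM after siCtrl. As a share of the raw counts they held 0.408% and 0.396% after siPADI2, against 0.396% and 0.401% after siCtrl. The first pair of groups did not overlap and the second did, which shows the same dependence on scaling in the sums.

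In the large subunit, 21 of 49 members were lower (42.9%) and 3 higher, with a median log2 fold change of −0.15, and in the small subunit 9 of 25 were lower (36.0%) and 2 higher, with a median of −0.09. Among all 13856 protein-coding genes tested, 30.8% were lower and 32.8% higher. Of the 44 tested homologues of bacterial proteins, 17 were lower and 2 higher, and of the 30 mitochondria-specific members, 13 were lower and 3 higher. The difference between these classes was not tested. MRPS36, outside both subunits, stood at 27.4 and 26.8 CPM after siPADI2, against 29.1 and 33.1 CPM after siCtrl, and missed the threshold (log2 fold change −0.20, SE 0.0951, edgeR adjusted p = 0.0669).

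**Figure D2:**
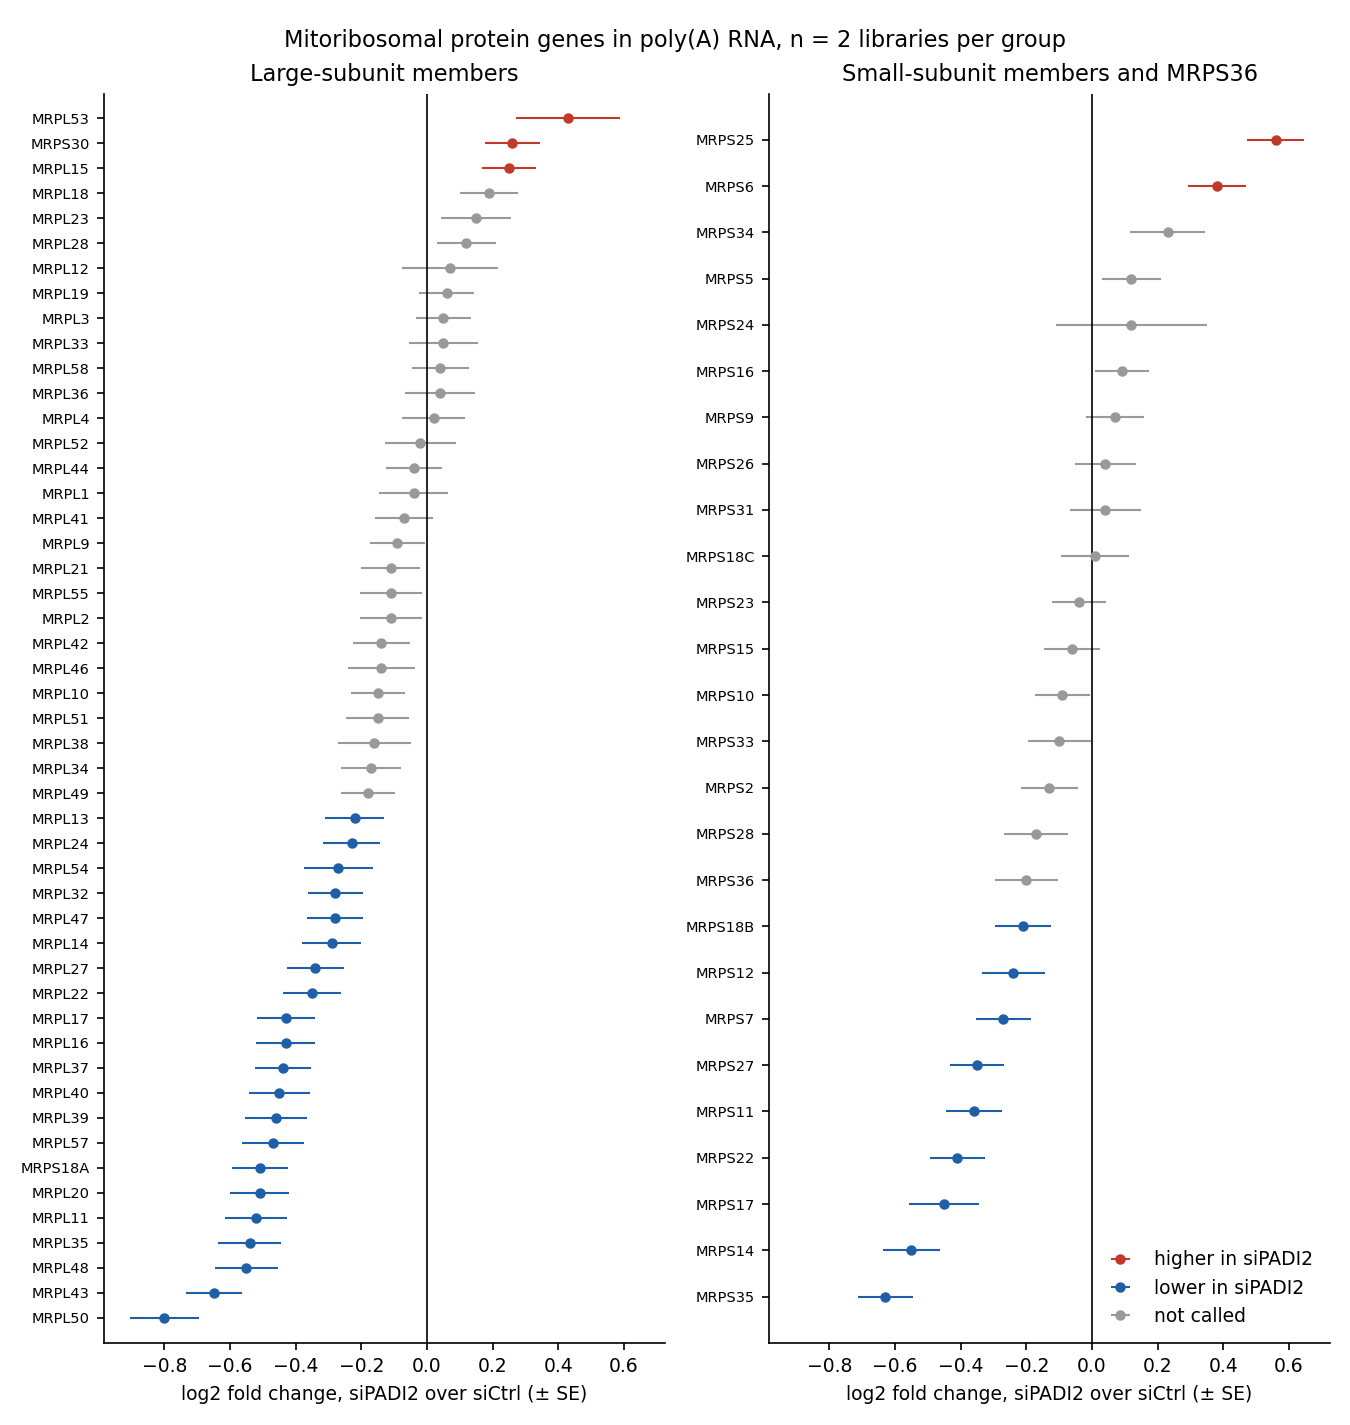
Log2 fold change of each tested member in poly(A) RNA, siPADI2 over siCtrl, with its standard error, for large-subunit members (left) and for small-subunit members with MRPS36 (right). The 30 members called lower (blue) reach down to −0.80 in MRPL50 and the 5 called higher (red) up to 0.56 in MRPS25, and with total counts as library sizes 17 are lower and 16 higher.

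Among the large-subunit members, MRPL50 (ENSG00000136897.6, hg19 chromosome 9 from 104149915 to 104160896, minus strand) stood at 13.8 and 15.2 CPM after siPADI2, against 22.8 and 27.5 CPM after siCtrl. Both siPADI2 libraries lay below both siCtrl libraries, and the log2 fold change was −0.80 (SE 0.105, edgeR adjusted p = 2.68e-08). MRPL43 (ENSG00000055950.12, chromosome 10 from 102729215 to 102747272, minus strand), also specific to mitochondria, stood at 56.5 and 52.1 CPM after siPADI2, against 89.6 and 80.8 CPM after siCtrl. Its groups were as clearly apart (log2 fold change −0.65, SE 0.0855, edgeR adjusted p = 2.79e-08).

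MRPL48, another mitochondria-specific protein of this subunit, stood at 20.7 and 20.2 CPM after siPADI2, against 28.4 and 31.6 CPM after siCtrl. The groups did not overlap (log2 fold change −0.55, SE 0.0965, edgeR adjusted p = 5.46e-06). MRPL35, MRPL11 and MRPL20, homologues of bacterial L35, L11 and L20, fell by 0.54, 0.52 and 0.51 on the log2 scale, with SE of 0.0962, 0.0939 and 0.0899. MRPL11 is part of the stalk base where translation factors bind, and it had 23.5 and 22.8 CPM after siPADI2 and 33.9 and 32.3 CPM after siCtrl. In each of these 3 genes the siPADI2 libraries were below both siCtrl libraries.

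The small-subunit members that fell most were MRPS35 and MRPS14. MRPS35 (ENSG00000061794.8, chromosome 12 from 27863706 to 27909228, plus strand), whose promoter is printed above, had 142 and 134 CPM after siPADI2, against 203 and 223 CPM after siCtrl. Its log2 fold change was −0.63 (SE 0.0838, edgeR adjusted p = 3.77e-08). MRPS14, the homologue of bacterial S14, had 37.1 and 34.6 CPM after siPADI2, against 52.1 and 53.2 CPM after siCtrl (log2 fold change −0.55, SE 0.0880, edgeR adjusted p = 1.11e-06). The groups were apart in both genes.

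Of the 3 relatives of bacterial S18, MRPS18A and MRPS18B were called lower and MRPS18C was not called. MRPS18A, which sits in the large subunit, had 50.2 and 46.7 CPM after siPADI2, against 71.6 and 66.7 CPM after siCtrl (log2 fold change −0.51, SE 0.0852, edgeR adjusted p = 2.56e-06). MRPS18B had 181 and 162 CPM after siPADI2, against 207 and 190 CPM after siCtrl, a smaller difference that passed the test (−0.21, SE 0.0848, edgeR adjusted p = 0.0307). MRPS18C had 16.0 and 15.1 CPM after siPADI2, against 15.2 and 15.6 CPM after siCtrl, with overlapping groups and a log2 fold change of 0.01 (SE 0.103, edgeR adjusted p = 0.928). The differences between the 3 were not tested against one another.

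Other small-subunit members fell by less. MRPS22, a mitochondria-specific small-subunit protein, had 53.4 and 49.6 CPM after siPADI2, against 67.6 and 69.0 CPM after siCtrl (log2 fold change −0.41, SE 0.0844, edgeR adjusted p = 7.71e-05). MRPS27, a pentatricopeptide repeat protein of the small subunit, had 100.0 and 104 CPM after siPADI2, against 123 and 137 CPM after siCtrl (−0.35, SE 0.0832, edgeR adjusted p = 0.000473). MRPS12, the homologue of the bacterial S12 decoding protein, had 28.9 and 24.8 CPM after siPADI2, against 32.7 and 30.9 CPM after siCtrl (−0.24, SE 0.0965, edgeR adjusted p = 0.0309). The groups were apart in all 3. The calls of MRPS12 and MRPS18B were lost with total counts as library sizes (−0.06 and −0.03), by DESeq2 (−0.23 and −0.20), with no filter (−0.21 and −0.18), with the length offset (−0.18 and −0.14), and without siCtrl replicate 1 (−0.21 and −0.15) or siPADI2 replicate 2 (−0.13 and −0.13).

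The remaining members fixed for naming did not pass. MRPL3, MRPL12, MRPL44, MRPS16 and MRPL58, the last a peptidyl-tRNA hydrolase built into the large subunit, had log2 fold changes of 0.05, 0.07, −0.04, 0.09 and 0.04, with SE of 0.0824, 0.147, 0.0858, 0.0823 and 0.0869. MRPS34 had 59.3 and 48.2 CPM after siPADI2, against 51.4 and 40.8 CPM after siCtrl (log2 fold change 0.23, SE 0.115, edgeR adjusted p = 0.101). In MRPL12, MRPL3, MRPL44, MRPL58 and MRPS34 the groups overlapped.

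Of the 5 members that rose, MRPS25 (ENSG00000131368.3, chromosome 3 from 15083967 to 15106842, minus strand) had 65.7 and 73.9 CPM after siPADI2, against 48.6 and 46.2 CPM after siCtrl (log2 fold change 0.56, SE 0.0865, edgeR adjusted p = 6.38e-07). MRPS6, the homologue of bacterial S6, had 56.1 and 61.0 CPM after siPADI2, against 42.2 and 47.6 CPM after siCtrl (0.38, SE 0.0882, edgeR adjusted p = 0.000355). MRPL15, the homologue of bacterial L15, had 114 and 112 CPM after siPADI2, against 92.3 and 97.6 CPM after siCtrl (0.25, SE 0.0818, edgeR adjusted p = 0.00861). In all 3 both siPADI2 libraries were the higher ones.

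MRPS30, a large-subunit protein also known as PDCD9, had 71.0 and 74.0 CPM after siPADI2, against 58.0 and 63.4 CPM after siCtrl (log2 fold change 0.26, SE 0.0843, edgeR adjusted p = 0.00949). MRPL53 had 3.06 and 3.18 CPM after siPADI2, against 2.16 and 2.41 CPM after siCtrl (0.43, SE 0.158, edgeR adjusted p = 0.0181). Both rises were lost when siCtrl replicate 1 or siPADI2 replicate 2 was left out, with values of 0.19 and 0.23 for MRPS30 and 0.37 and 0.41 for MRPL53.

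**Figure D3:**
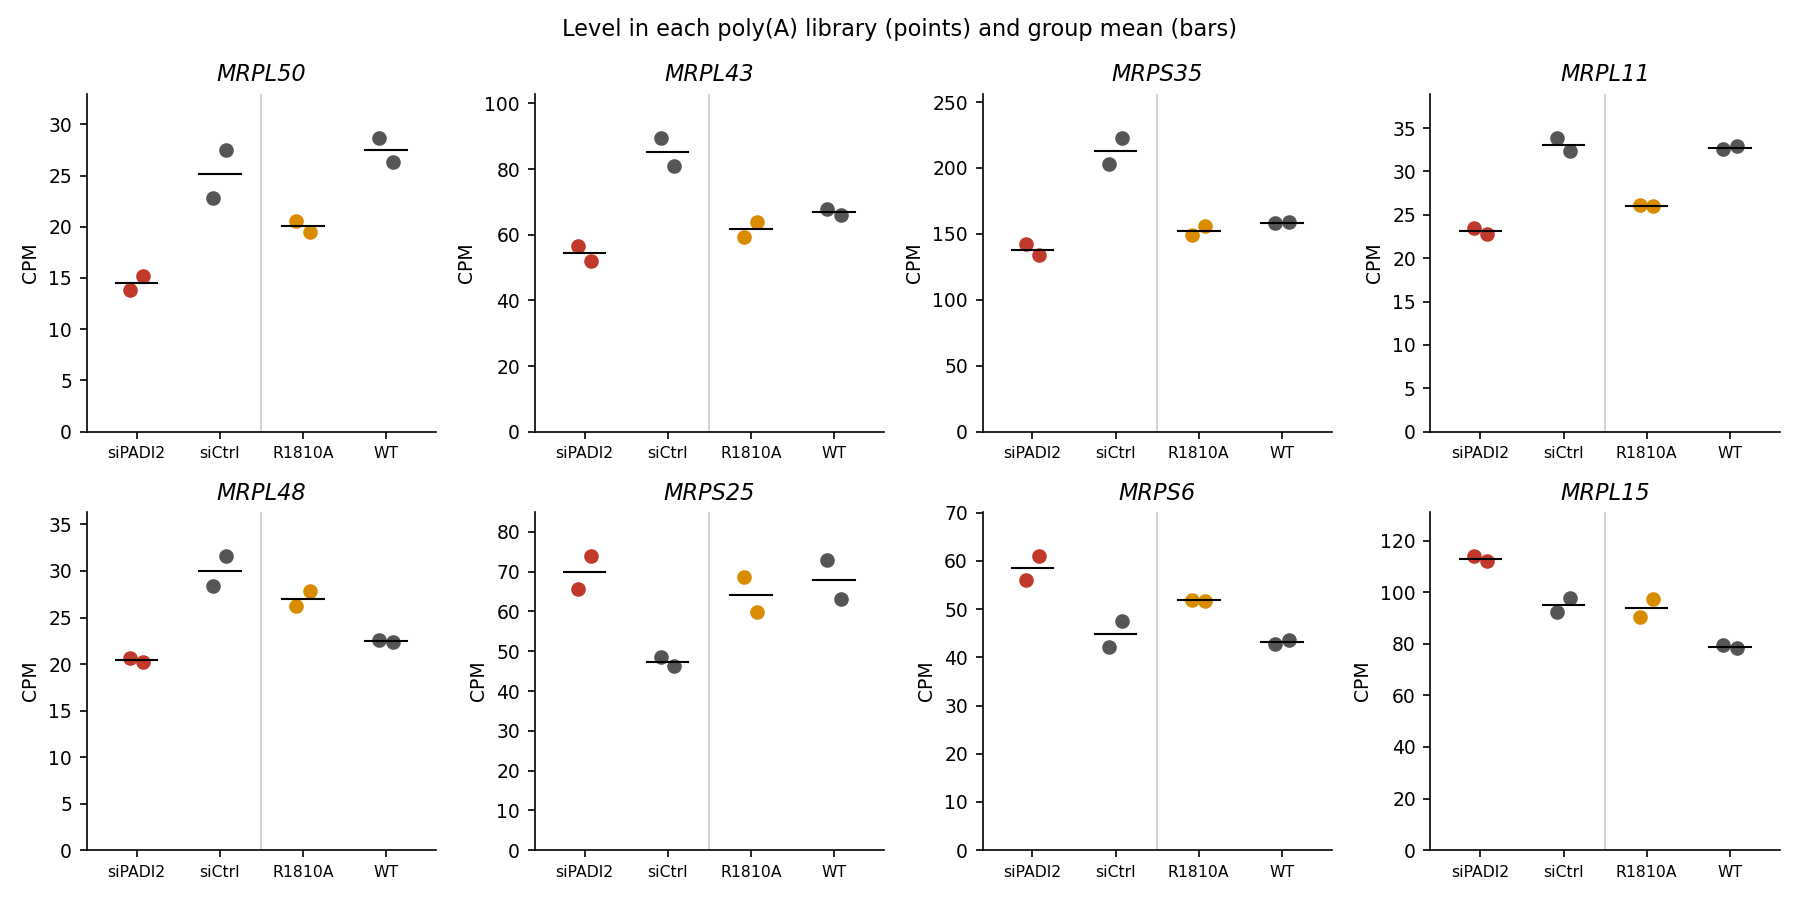
CPM of 8 members in each poly(A) library (points; horizontal bars are means of 2 libraries), with siPADI2 and siCtrl left of the grey line and the libraries labelled R1810A and WT right of it. MRPL50 and MRPL11 are lower in both tested groups than in their controls, MRPS6 and MRPL15 are higher in both, and MRPL48 is lower in siPADI2 than in siCtrl and higher in the libraries labelled R1810A than in WT.

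In the libraries labelled R1810A, 13 members were higher and 10 lower than in the WT libraries, a balance that depends on the scaling, since total counts as library sizes gave 20 higher and 5 lower. MRPL50 was again the member that fell most, to 0.729 of its WT level, followed by MRPL35 and MRPL11. MRPL34, the homologue of bacterial L34, rose most, to 1.30 times its WT level, followed by MRPL1 and MRPL18.

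All 76 members passed the filter here, and the 13 higher ones made up 17.1% and the 10 lower ones 13.2%, against 22.6% higher and 24.3% lower among all 19202 genes tested. The median log2 fold change was 0.02 over the members and −0.02 over all genes tested, and 75 of the 76 changed by less than 0.5 in either direction. The exception was MRPL30 at 0.60, which rests on 11 and 12 counts in the libraries labelled R1810A, against 10 and 5 counts in the WT libraries, and was not called. The family summed to 3630 and 3810 CPM in the libraries labelled R1810A and to 3730 and 3730 CPM in the WT libraries, with overlapping groups. Against a fold of 1.2, edgeR's glmTreat called MRPL50 alone among the members, where it called 12.5% of all genes higher and 14.2% lower. Without WT replicate 1, 6 members were higher and 5 lower. Without R1810A replicate 2, 7 were higher, and without R1810A replicate 1 or WT replicate 2, 5 and 6 were lower.

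By subunit, 6 of 50 large-subunit members were higher and 8 lower, and 6 of 25 small-subunit members were higher and 2 lower. MRPS36, outside both, had 29.4 and 29.9 CPM in the libraries labelled R1810A, against 26.1 and 26.5 CPM in the WT libraries, and rose (log2 fold change 0.17, SE 0.0624, edgeR adjusted p = 0.0368).

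MRPL50 had 20.6 and 19.5 CPM in the libraries labelled R1810A, against 28.7 and 26.3 CPM in the WT libraries (log2 fold change −0.46, SE 0.0708, edgeR adjusted p = 0.000148). MRPL35 had 24.2 and 25.5 CPM in the libraries labelled R1810A, against 31.2 and 32.3 CPM in the WT libraries (−0.35, SE 0.0645, edgeR adjusted p = 0.000557). MRPL11 had 26.1 and 26.0 CPM in the libraries labelled R1810A, against 32.6 and 32.9 CPM in the WT libraries (−0.33, SE 0.0617, edgeR adjusted p = 0.000664). The groups were apart in all 3. MRPL16, MRPS14, MRPL4, MRPS17 and MRPL22, homologues of bacterial L16, S14, L4, S17 and L22, fell by 0.26, 0.25, 0.23, 0.21 and 0.20 on the log2 scale, with SE of 0.0660, 0.0578, 0.0807, 0.0732 and 0.0616. The calls of MRPL4, MRPS17 and MRPL22 were lost under several alternatives.

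MRPL34 had 20.1 and 22.9 CPM in the libraries labelled R1810A, against 16.4 and 16.8 CPM in the WT libraries (log2 fold change 0.38, SE 0.0767, edgeR adjusted p = 0.00128). MRPL1, part of the mobile L1 stalk, had 22.5 and 23.2 CPM in the libraries labelled R1810A, against 18.3 and 18.1 CPM in the WT libraries (0.33, SE 0.0664, edgeR adjusted p = 0.00119). MRPL48 had 26.2 and 27.8 CPM in the libraries labelled R1810A, against 22.6 and 22.4 CPM in the WT libraries (0.26, SE 0.0659, edgeR adjusted p = 0.0051). The groups were apart in each. MRPL18, MRPS28, MRPS6, MRPL15 and MRPS9 rose by 0.27, 0.26, 0.26, 0.25 and 0.22 on the log2 scale, with SE of 0.0596, 0.0705, 0.0575, 0.0600 and 0.0614. The calls of MRPS28 and MRPS9 were lost without WT replicate 1 or R1810A replicate 2.

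The siPADI2 and R1810A comparisons in poly(A) RNA share no library, so their calls can be set side by side. Of the 10 members lower in the libraries labelled R1810A, 9 were also lower after siPADI2 (90.0% of the 10 and 30.0% of the 30), namely MRPL11, MRPL16, MRPL17, MRPL22, MRPL35, MRPL37, MRPL50, MRPS14 and MRPS17. MRPL15 and MRPS6 were higher in both (15.4% of the 13 and 40.0% of the 5). Over the 18260 genes tested in both comparisons, 65.5% of the genes lower in the libraries labelled R1810A were lower after siPADI2 (57.8% of those lower after siPADI2), and 66.2% of the genes higher there were higher after siPADI2 (51.9%). MRPL48 was the single member called in opposite directions, lower after siPADI2 and higher in the libraries labelled R1810A. PADI2 was low in both tested groups, as given above, and its part in this overlap was not tested.

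**Figure D4:**
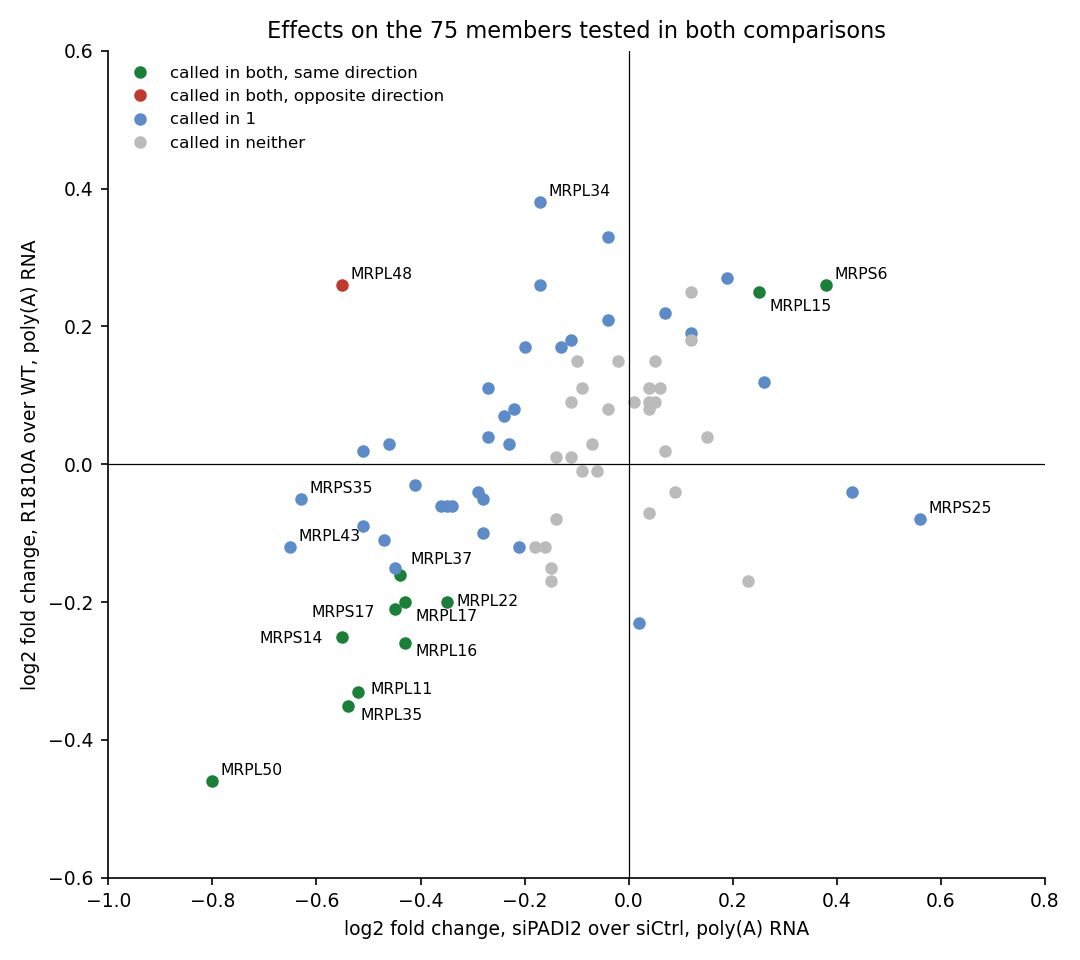
Log2 fold change of each of the 75 members tested in both poly(A) comparisons, siPADI2 over siCtrl (horizontal) and R1810A over WT (vertical). The 9 members lower in both lie at the lower left, MRPL15 and MRPS6 at the upper right and MRPL48 at the upper left, and the horizontal spread from −0.80 to 0.56 is wider than the vertical one.

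The difference between the 2 effects was tested as an interaction in a joint fit of the 8 poly(A) libraries. In 23 of the 76 members the siPADI2 effect was lower than the R1810A effect (30.3%), and in 1 it was higher (1.32%), against 14.3% lower and 11.8% higher among all 19884 genes tested. Among protein-coding genes 18.2% were lower and 14.2% higher. Among the called members the largest differences were −0.84 for MRPL48 (SE 0.104, edgeR adjusted p = 4.59e-05), −0.60 for MRPS35 (SE 0.0947, edgeR adjusted p = 0.00035) and −0.57 for MRPL34 (SE 0.104, edgeR adjusted p = 0.00105). The single member with a higher siPADI2 effect was MRPS25 (0.62, SE 0.129, edgeR adjusted p = 0.00371). With total counts as library sizes 7 members were lower and 2 higher, and without R1810A replicate 2 the number lower was 7, without WT replicate 1 it was 8, without siPADI2 replicate 2 it was 11 and without siCtrl replicate 2 it was 15.

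In chromatin RNA after siPADI2, 11 members were lower and 3 higher by edgeR, against 4 lower by DESeq2 and 6 lower and 2 higher by edgeR with total counts as library sizes. MRPL23 and MRPL55, homologues of bacterial L23 and L31, MRPL54, a mitochondria-specific protein, and MRPL21 and MRPL33, homologues of bacterial L21 and L33, fell by 1.28 to 1.49 on the log2 scale. MRPS33, MRPL48 and MRPS25 rose. These values rest on small counts, with a median of 47 and 46 counts per member in the siPADI2 libraries, against 119 and 135 in the siCtrl libraries, and only exonic reads were counted. In the same libraries the luminal markers summed to 1150 to 1640 CPM after siPADI2 and 2370 to 2540 CPM after siCtrl, and the mesenchymal ones to 93.0 to 106 CPM after siPADI2 and 191 to 210 CPM after siCtrl. The immune markers summed to 63.8 to 65.3 CPM after siPADI2 and 46.4 to 49.7 CPM after siCtrl, and the endothelial ones to 11.4 to 19.5 CPM after siPADI2 and 39.6 to 41.7 CPM after siCtrl. The basal markers summed to 83.1 to 110 CPM after siPADI2 and 70.9 to 90.5 CPM after siCtrl, and TP63 among them was higher (log2 fold change 0.71, edgeR adjusted p = 0.00291). Some of these genes were near 0 in poly(A) RNA. After siPADI2, PTPRC had 0.00842 and 0.0146 CPM there but 58.9 and 51.7 CPM in chromatin RNA, within the range of the members. PDGFRB and VWF, also near 0 in poly(A) RNA, fell by 1.85 and 1.75 on the log2 scale in chromatin RNA. PTPRC was not called (0.46). How much such reads add to the members' chromatin values, and the part of these markers, was not tested.

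Of the 75 members tested, 11 were lower after siPADI2 (14.7%) and 3 higher (4.00%), against 20.1% lower and 12.2% higher among all 33879 genes tested. Among the 17758 protein-coding genes tested, 26.6% were lower and 7.52% higher. The median log2 fold change was −0.16 over the members, 0.03 over all genes tested and −0.15 over protein-coding genes, so the members' median was near that of protein-coding genes. With total counts as library sizes, the medians were −0.05 over the members and 0.14 over all genes. The family summed to 1680 and 1450 CPM after siPADI2 and to 1700 and 1720 CPM after siCtrl. Without siPADI2 replicate 2, the library with the lower sum, 4 members were lower and the members' median minus that of all genes was −0.01. Without siCtrl replicate 5, 6 members were lower. Against a fold of 1.2, edgeR's glmTreat called 8 members lower, against 17.4% lower and 9.07% higher among all genes.

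MRPL23 (ENSG00000214026.6, chromosome 11 from 1968508 to 2005752, plus strand) had 9.23 and 5.67 CPM after siPADI2, from 26 and 16 counts, against 17.3 and 24.6 CPM after siCtrl, from 107 and 167 counts. Its log2 fold change was −1.49 (SE 0.287, edgeR adjusted p = 4.6e-06). MRPL55 (ENSG00000162910.14, chromosome 1 from 228294380 to 228297013, minus strand) had 10.3 and 9.57 CPM after siPADI2, against 22.4 and 29.0 CPM after siCtrl (−1.37, SE 0.261, edgeR adjusted p = 3.71e-06). The groups were apart in both. In poly(A) RNA MRPL23 had 19.1 and 16.0 CPM after siPADI2 and 16.0 and 15.6 CPM after siCtrl. It was not called there (log2 fold change 0.15, SE 0.106, edgeR adjusted p = 0.22).

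MRPL54 had 6.03 and 2.48 CPM after siPADI2, against 11.5 and 11.2 CPM after siCtrl (log2 fold change −1.41, SE 0.376, edgeR adjusted p = 0.00144). MRPL21 had 7.81 and 8.15 CPM after siPADI2, against 19.3 and 21.9 CPM after siCtrl (−1.37, SE 0.284, edgeR adjusted p = 2.55e-05). MRPS2, the homologue of bacterial S2, had 17.4 and 13.8 CPM after siPADI2, against 31.5 and 36.1 CPM after siCtrl (−1.11, SE 0.232, edgeR adjusted p = 2.69e-05). In all 3 the siPADI2 libraries were below both siCtrl libraries. MRPL33, MRPL41 and MRPS18A fell by 1.28, 0.89 and 0.84 on the log2 scale, with SE of 0.384, 0.271 and 0.257.

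The 3 members that rose are among the 30 specific to mitochondria, of which 4 were lower. MRPS33 had 16.3 and 16.3 CPM after siPADI2, against 9.57 and 10.6 CPM after siCtrl (log2 fold change 0.69, SE 0.279, edgeR adjusted p = 0.0435). MRPL48 had 45.4 and 52.4 CPM after siPADI2, against 32.6 and 32.1 CPM after siCtrl (0.60, SE 0.202, edgeR adjusted p = 0.014). MRPS25 had 37.6 and 42.9 CPM after siPADI2, against 27.1 and 29.0 CPM after siCtrl (0.52, SE 0.205, edgeR adjusted p = 0.0379). The groups were apart in each. DESeq2's Wald test called 0 members higher, edgeR had 4 at an unadjusted p under 0.05, and edgeR's adjusted calls of all 3 were lost without siCtrl replicate 1, siCtrl replicate 5 or siPADI2 replicate 2.

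Most members lower in chromatin RNA were rich in GC, though MRPS35 (41.1%) and MRPL33 (42.0%) were not. The 11 lower members had a median GC content of 61.0%, against 50.3% for the 61 members not called, and the 3 higher ones had 46.1%. Over all genes tested the same order held, with medians of 58.7% for genes lower, 47.2% for genes not called and 43.3% for genes higher. With an offset fitted on GC content in each library, 7 members were lower and 5 higher, 3 of the 11 lower members remained called and 8 kept their sign. Under this offset the value of MRPL23 was −0.54, that of MRPL55 −0.41 and that of MRPL54 −0.46. Those of MRPS2, MRPS18A and MRPL41 were −0.20, −0.05 and 0.05. All of these members have 58.4% GC or more. MRPL21 (54.6% GC), MRPL33 and MRPS35, also lower in chromatin RNA, are not among them.

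**Figure D5:**
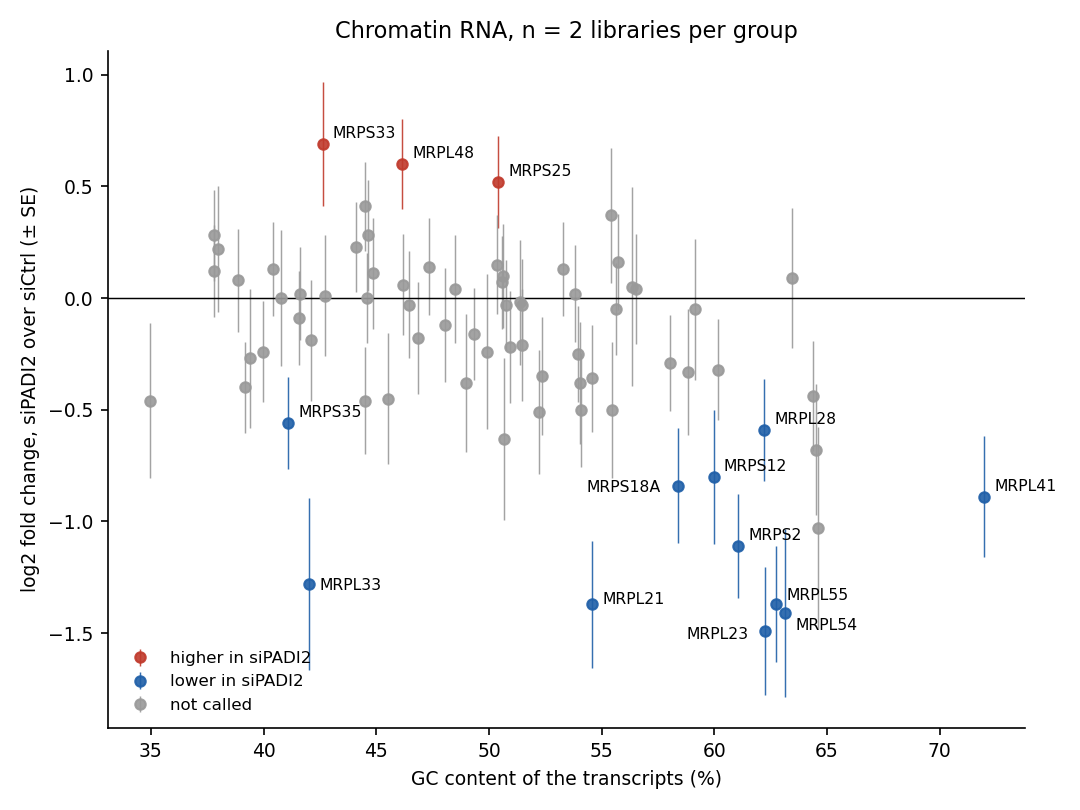
Log2 fold change of each tested member in chromatin RNA, siPADI2 over siCtrl, with its standard error, against the GC content of its transcripts. Of the 11 members called lower (blue), 8 have 58.4% GC or more, and the 3 called higher (red) lie between 42.6% and 50.4%.

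Calls in the 2 RNA types overlapped in part. Of the 11 members lower in chromatin RNA, 4 were also lower in poly(A) RNA after siPADI2 (36.4% of the 11 and 13.3% of the 30), namely MRPS35, MRPS18A, MRPS12 and MRPL54, whose promoters are printed above. Over the 17438 genes tested in both RNA types, 37.5% of those lower in chromatin RNA were also lower in poly(A) RNA (30.2% of those lower in poly(A) RNA). MRPS35 had 41.2 and 29.4 CPM in siPADI2 chromatin RNA, against 52.7 and 51.4 CPM in siCtrl chromatin RNA (log2 fold change −0.56, SE 0.205, edgeR adjusted p = 0.0239). MRPS12 had 11.7 and 5.67 CPM after siPADI2, against 14.4 and 15.8 CPM after siCtrl (−0.80, SE 0.299, edgeR adjusted p = 0.0285). MRPS25 was higher in both RNA types. MRPL48 was lower in poly(A) RNA and higher in chromatin RNA.

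Whether the siPADI2 effect differed between the RNA types was tested as an interaction over the 8 siRNA libraries. The effect was lower in chromatin RNA than in poly(A) RNA for 6 members (7.89%), against 6.34% of all 44615 genes tested, and for 0 members was it higher by edgeR, against 1.71% of all genes. Among the 18494 protein-coding genes tested, 12.8% were lower and 2.53% higher, and the median difference was −0.19 over the members and −0.38 over protein-coding genes. At an unadjusted p under 0.05, edgeR had 1 member higher, and DESeq2's Wald test called 13 higher. Among the called members the largest differences were −1.85 for MRPL23 (SE 0.428, edgeR adjusted p = 0.000639), −1.53 for MRPL33 (SE 0.472, edgeR adjusted p = 0.0195) and −1.47 for MRPL55 (SE 0.413, edgeR adjusted p = 0.0079). The median of this difference over all genes tested was −0.16 by edgeR. Over all genes with any count, it was −0.14 by edgeR and 0.54 by DESeq2. Over the members it was −0.19 by edgeR and 0.18 by DESeq2, so its zero point is not fixed by these data. With the GC offset the differences of MRPL23 and MRPL55 were −0.53 and −0.15 and lost their calls. Without siCtrl poly(A) replicate 2, 16 members were lower, without either siPADI2 poly(A) library 2 were, and without siPADI2 chromatin replicate 1, 10 were. MRPL48, called in opposite directions in the 2 RNA types, had a difference of 0.96 (SE 0.376, edgeR adjusted p = 0.101).

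Other proteins of the mitochondrial ribosome, which carry other names, were measured beside the members. In poly(A) RNA DAP3, the GTP-binding protein of the small subunit, had 161 and 158 CPM after siPADI2, against 205 and 219 CPM after siCtrl (log2 fold change −0.41, SE 0.0824, edgeR adjusted p = 5.16e-05). CHCHD1 and AURKAIP1 fell by 0.30 and 0.31, and PTCD3 and GADD45GIP1 did not pass, with values of −0.01 and 0.20, and with total counts as library sizes 1 of the 5 was lower and 1 higher. In the libraries labelled R1810A, PTCD3 rose by 0.18 (SE 0.0570, edgeR adjusted p = 0.0173) and the other 4 were not called.

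Genes that assemble the ribosome or act with it changed in both directions in siPADI2 poly(A) RNA. Of 30 genes for assembly and rRNA modification, 8 were higher and 5 lower, with a median log2 fold change of 0.02, where 28.8% of all genes were higher and 27.9% lower. YBEY, an rRNA endonuclease, fell by 1.46, and GRSF1, an RNA granule protein, by 0.84, while the protease subunit AFG3L2 and the pseudouridine synthase RPUSD4 rose by 0.85 and 0.81. Of 18 translation factors, 7 were lower and 5 higher, with the release factor MTRF1L at −0.99 and OXA1L, the membrane insertase that binds the ribosome, at −0.68. Of 20 mitochondrial aminoacyl-tRNA synthetases and related amidotransferase genes, 7 were lower and 5 higher. The balance in all 3 lists depends on the scaling: with total counts as library sizes, 14 assembly genes were higher and 3 lower with a median of 0.20, 6 translation factors were higher and 2 lower with a median of 0.14, and 9 synthetase genes were higher and 2 lower with a median of 0.18.

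The templates of mitochondrial translation and the nuclear partners of their products were measured too. Of the 13 mRNAs of the mitochondrial genome, 12 fell in poly(A) RNA after siPADI2, with a median log2 fold change of −0.55. With total counts as library sizes 9 were lower, with a median of −0.37. In the libraries labelled R1810A 0 of the 13 were called. In chromatin RNA 12 were higher after siPADI2, with a median of 1.63. These mRNAs belong to mitochondria, and how much RNA from outside the nucleus each chromatin library held was not tested. MT-ATP6, a subunit of ATP synthase, averaged 1230 ± 7.73 CPM after siPADI2 and 3820 ± 280 CPM after siCtrl in poly(A) RNA (SD, n = 2), and 2250 ± 565 CPM after siPADI2 and 713 ± 58.6 CPM after siCtrl in chromatin RNA (SD, n = 2). Of 77 nuclear genes for respiratory chain and ATP synthase subunits, 35 were lower and 7 higher after siPADI2 in poly(A) RNA, with a median of −0.19 that moved to −0.01 with total counts as library sizes, and the libraries labelled R1810A had 14 higher and 10 lower, or 24 higher and 7 lower with total counts. COX7A2 fell most in the list, by 1.21 on the log2 scale, and NDUFA8 rose most, by 0.63.

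Of the genes for cytosolic ribosomal proteins, 40 of 82 were lower and 4 higher after siPADI2 in poly(A) RNA, with a median log2 fold change of −0.19, but this too depends on the scaling, and near-identical copies make their counts uncertain. In the libraries labelled R1810A, 36 of 82 cytosolic ribosomal protein genes were higher and 3 lower, against 22.6% and 24.3% of all genes. The members had 13 higher and 10 lower of 76 there. With total counts as library sizes, the siPADI2 median of this list was −0.01, with 16 lower and 11 higher. In the libraries labelled R1810A, total counts gave 41 higher and 2 lower in this list. The members' balance there also moved towards higher with total counts, as given above.

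Regulators of nuclear genes for mitochondrial proteins changed in both directions. MYC averaged 4.55 ± 0.317 CPM after siPADI2 and 11.1 ± 0.243 CPM after siCtrl in poly(A) RNA (SD, n = 2), a log2 fold change of −1.28, and the coactivator gene PPARGC1A fell by 1.06. PPARGC1B averaged 15.6 ± 2.49 CPM after siPADI2 and 4.71 ± 0.593 CPM after siCtrl (SD, n = 2), a log2 fold change of 1.75. YY1, whose core letters are found in 32.8% of the member promoters, rose by 0.48. Of the 12 regulators listed, 6 were higher and 2 lower after siPADI2 in poly(A) RNA, against 28.8% and 27.9% of all genes. The libraries labelled R1810A had 1 higher and 4 lower, against 22.6% and 24.3% of all genes. Total counts as library sizes gave 8 and 2 after siPADI2, and 2 and 3 in the libraries labelled R1810A.

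Some members share a start region with a neighbour. Over the 17 such partners tested after siPADI2 in poly(A) RNA, 5 were lower and 3 higher. Among all protein-coding genes tested, 30.8% were lower and 32.8% higher. MRPS11, itself a member, is among the lower partners. Of the 8 members that fell after siPADI2 in poly(A) RNA and have a protein-coding partner within 1000 bases, 2 partners were lower and 1 was higher. MRPL57 fell by 0.47 with its partner SKA3, a kinetochore gene 43 bases away, at −1.16, and MRPL27 fell by 0.34 with EME1 at −0.73. MRPL50 fell by 0.80 and its partner ZNF189, 259 bases away, rose by 0.29. These pairs were named after their values were seen.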

How the data were processed

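RNA-seq of T47D-MTVL cells gave 12 libraries, 8 of poly(A) RNA and 4 of chromatin RNA, prepared with stranded Illumina kits per the labels' protocols. The authors deposited raw counts per gene, made with featureCounts 1.5.1 (poly(A)) or 1.4.6-p2 (chromatin) on hg19 exons of GENCODE 19, paired and strand-specific, per the file headers. Trimmomatic and STAR are named in the submitters' processing notes, and their settings are not given in the sources used here. The headers show no option for multi-mapping reads or reads over several genes.

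Symbols, biotypes and GC contents came from GENCODE 29 by stable ID, which matched 52338 of the 57820 IDs. MRPL45 and MRPS21 were not analysed here, because their IDs did not match. Each comparison was fitted over its own 4 libraries, and each interaction over 8, with edgeR 4.0.16 in R 4.3.3 (filterByExpr with a minimum count of 10, TMM scaling, robust quasi-likelihood F test), and p-values were Benjamini-Hochberg adjusted over all genes tested. CPM use the TMM library sizes, SE is the size of the log2 fold change divided by the square root of F, and levels per kilobase divide CPM by the exonic length. Alternatives were DESeq2 1.42.0, its size factors, total counts, no filter, a test against a fold of 1.2, offsets for GC or length, a joint fit, a replicate block and leaving out each library. The scripts were tested on simulated data.

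The members named were, per comparison, the 8 with the largest change in each direction among those called whose groups do not overlap, the 3 largest in each direction for interactions, the 3 highest and 3 lowest levels, and 14 members listed whatever their values, whose uncalled values are given for siPADI2 poly(A) RNA. From each other gene list up to 2 called genes in each direction were named. Members and lists were chosen with earlier results of these data known. The libraries number 2 a group, which limits the precision of each value, and the depths are given with the results.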

Additional observations from a re-analysis of the deposited data

Results flagged for a closer look

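The siPADI2 effect was compared between RNA types by a test of the difference itself. It was lower in chromatin RNA than in poly(A) RNA for 6 members and higher for 0 by edgeR, where 1 was higher at an unadjusted p under 0.05 and 13 by DESeq2. The 6 are 7.89% of the members, near the 6.34% of all genes and below the 12.8% of protein-coding genes. The GC offset gave 10 higher and 2 lower. Among the called members the largest differences on the log2 scale were −1.85 for MRPL23, −1.53 for MRPL33 and −1.47 for MRPL55. MRPL33 shares 21.1% of its exonic bases with BABAM2 on the same strand.

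The siPADI2 and R1810A effects in poly(A) RNA were also compared by a test of the difference. The siPADI2 effect was lower in 23 members (30.3%) and higher in 1 (1.32%). Over all genes 14.3% were lower and 11.8% higher, and over protein-coding genes 18.2% were lower. Total counts as library sizes gave 7 lower and 2 higher. The single higher one was MRPS25 at 0.62, and among the lower ones MRPL48 was at −0.84, MRPS35 at −0.60 and MRPL34 at −0.57. PADI2 was low in both tested groups, and its part was not tested.

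Among the MRPL and MRPS pseudogenes, which were left out of the members but not of the genes entered in each fit, MRPL45P2 held 4855 counts over all libraries. All 69 pseudogenes together held 7161 counts, or 0.199% of the members' 3596636. MRPL45 itself was not analysed here.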

How the results depend on the processing

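Counts are of members, higher then lower. After siPADI2 in poly(A) RNA (5 and 30), total counts as library sizes gave 16 and 17 and a test against a fold of 1.2 gave 1 and 17. Members without shared exons, a choice made after seeing the data, gave 3 higher. In the libraries labelled R1810A (13 and 10), total counts gave 20 and 5, the fold of 1.2 gave 0 and 1, DESeq2 gave 5 lower, and DESeq2's size factors, the GC offset, the length offset and the joint fit gave 6 lower each. After siPADI2 in chromatin RNA (3 and 11), DESeq2 gave 0 and 4, the GC offset 5 and 7 and total counts 6 lower, while the joint fit, no filter and the fold of 1.2 gave 0 higher. For the chromatin minus poly(A) effect (0 and 6), DESeq2 gave 13 higher, total counts 2 higher and the GC offset 10 and 2. For the siPADI2 minus R1810A effect (1 and 23), no filter gave 2 and 9 and total counts 2 and 7.

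The labels do not say what a replicate number marks, and with 2 pairs the numbers were not taken to pair the libraries. Same-numbered deviations correlated at 0.106 for the siRNA and 0.46 for the RNAP2 libraries. With the replicate block, counts were 7 and 35 after siPADI2, 23 and 19 for R1810A, and 3 and 37 for the siPADI2 minus R1810A effect. No paired analysis was possible in chromatin RNA because its groups share a single number.

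Leaving out 1 library leaves a lone one, assumed to vary like the other group. It gave, after siPADI2 in poly(A) RNA, 4 to 6 higher, 22 to 28 lower and a median minus that of all genes of −0.21 to −0.07. For R1810A it gave 6 to 15 higher, 5 to 12 lower and a median difference of 0.00 to 0.08, and in chromatin RNA 0 to 1 higher, 4 to 13 lower and −0.26 to −0.01. For the chromatin minus poly(A) effect it gave 0 to 4 higher and 2 to 16 lower, and for the siPADI2 minus R1810A effect 1 to 1 higher and 7 to 22 lower.

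Signs turned for members near 0 after siPADI2 in poly(A) RNA. Leaving out 1 library gave −0.17 to 0.27 for MRPL12, −0.01 to 0.11 for MRPL3, −0.03 to 0.10 for MRPL58 and −0.03 to 0.06 for MRPS18C, negative for MRPL12 without siCtrl replicate 2 (−0.12) or siPADI2 replicate 1. With the GC offset MRPL3 was −0.02 and MRPS18C −0.11. With the length offset MRPL44 was 0.03 and MRPS18C −0.01, and with total counts MRPL44 was 0.14. In chromatin RNA, 8 of the 11 lower members kept their sign with the GC offset, and among those that did not, MRPL41 was 0.05. Of the other values of named members under alternatives, 676 kept direction and call, 119 lost the call and 12 gained it. The cause of these changes was not tested. The siPADI2 chromatin values rest on medians of 46 and 47 counts per member.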
